A study of Mus musculus with 5 samples.

Results

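The Fos and Jun genes encode the subunits of AP-1, a transcription factor that binds DNA as a pair of proteins. The 7 genes of the family, Fos, Fosb, Fosl1 and Fosl2 on the Fos side and Jun, Junb and Jund on the Jun side, were taken by symbol from a table of 17657 genes, all typed there as mRNA, measured by RNA-seq. The source was male C57BL/6 mouse skin with a labelled age of 8 weeks, from which epidermal stem cells were kept in KGM2, a medium for keratinocytes. Libraries from wild-type mice (WT1, WT2 and WT3) were compared with libraries from Angptl4 knockout mice (KO1 and KO2), whose targeted gene encodes a secreted inhibitor of lipoprotein lipase. Whether the libraries of a group stem from different animals or cultures is not labelled, and p-values therefore cover only the spread among these libraries, which may be technical. With 2 KO libraries that differed widely from each other, each is also described on its own.

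Each AP-1 dimer joins 2 proteins through their leucine zippers. Fos proteins do not pair with each other and need a Jun partner, whereas Jun proteins can also pair among themselves. Fos, Fosb, Jun and Junb are immediate early genes, switched on for a short time by growth factors and stress without new protein synthesis, while Fosl1 and Fosl2 usually follow later. On GRCm38.p6, as annotated for the table, Fos lies on chromosome 12 (85473890 to 85477274, plus strand), Fosb on chromosome 7 (19302696 to 19310118, minus strand), Fosl1 on chromosome 19 (plus strand) and Fosl2 on chromosome 5 (32136173 to 32157840, plus strand). Jun lies on chromosome 4 (95047647 to 95052222, minus strand), and Junb (84976909 to 84978748, minus strand) and Jund (70697739 to 70700616, plus strand) both lie on chromosome 8. In the epidermis AP-1 takes part in keratinocyte proliferation, differentiation and the response to wounding.

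Promoter sequences are shown for Fosb and Fos, which were both lower in the KO libraries, and for Jun, which was higher. Only Fosb of these passed the test described below, and the window of Fosl2, which passed higher, is not printed. The sequences come from RefSeq (GRCm38.p6), which matched 6 of the 7 genes, and run from 250 bases before the annotated transcript start to 50 bases after it. Capitals mark TGACG, the first letters of the cyclic AMP response element, TGACATCA, an AP-1-like site, and the TATA motif TATAAA.
Fosb, chr7:19309996-19310295, minus strand: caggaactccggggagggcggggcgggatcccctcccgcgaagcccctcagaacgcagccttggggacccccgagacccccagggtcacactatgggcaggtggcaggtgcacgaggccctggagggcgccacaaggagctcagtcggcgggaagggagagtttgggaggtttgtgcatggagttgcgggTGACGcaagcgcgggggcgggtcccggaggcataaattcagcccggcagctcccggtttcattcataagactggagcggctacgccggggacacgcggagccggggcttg
Fos, chr12:85473640-85473939, plus strand: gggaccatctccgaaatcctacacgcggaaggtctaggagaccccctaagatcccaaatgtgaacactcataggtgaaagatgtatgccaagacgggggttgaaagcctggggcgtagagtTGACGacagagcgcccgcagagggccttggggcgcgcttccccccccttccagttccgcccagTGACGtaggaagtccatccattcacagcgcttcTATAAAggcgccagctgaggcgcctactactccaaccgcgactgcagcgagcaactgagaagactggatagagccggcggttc
Jun, chr4:95052173-95052472, minus strand: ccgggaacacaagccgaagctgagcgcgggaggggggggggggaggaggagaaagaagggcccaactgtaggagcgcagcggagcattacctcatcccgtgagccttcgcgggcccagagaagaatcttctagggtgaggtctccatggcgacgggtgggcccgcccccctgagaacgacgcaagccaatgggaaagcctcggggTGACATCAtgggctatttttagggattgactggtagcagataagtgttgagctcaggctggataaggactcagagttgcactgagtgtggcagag
On the strand of the gene, TGACG began 60 bases before the start of Fosb and 129 and 66 bases before that of Fos. Fosb has 3 transcripts in the annotation, and the start used for its window lies inside the gene bounds given above, which reach 19310118. This TGACG is thus upstream of that start but still within those bounds. TATAAA began 33 bases before the start of Fos, and TGACATCA 45 bases before that of Jun. In Junb TATAAA began at base 1, the annotated start itself. On both strands together, TGACG was present in 20.8% of 32851 promoter windows of the same length, TATAAA in 13.6% and TGACATCA in 3.6%. The full sites TGACTCA (5.2% of windows) and TGACGTCA (1.8%), and the CArG box bound by serum response factor (1.6%), had no match in the 6 windows. Sites farther upstream than 250 bases were not searched, so a promoter may hold them outside its window. CCAAT, in 37.4% of windows, began 65 bases before the start of Jun and 36 before that of Junb, and TGACG 106 before that of Junb. A match is a description of these letters and not a measured binding site.

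Marker genes of several cell types differed between the groups. Here and below, rose and fell are used of genes that passed edgeR's test. Of all tested genes 20.4% rose and 20.4% fell, the background for the counts of markers given here. The basal keratinocyte markers Krt5 and Krt14 were at 16545 to 17156 CPM and 13680 to 14151 CPM in WT and, for KO1 and KO2, at 24507 and 18440 CPM and 16113 and 13103 CPM, high in every library. The 8 basal markers summed to 37076 to 37990 CPM over WT, 49533 CPM for KO1 and 38893 CPM for KO2, with 3 higher and 2 lower. The 6 pericyte and smooth muscle markers summed to 231 to 263 CPM over WT, 1774 CPM for KO1 and 627 CPM for KO2, most of it Acta2, and the 3 that were tested rose. The 9 fibroblast markers summed to 435 to 461 CPM over WT, 721 CPM for KO1 and 345 CPM for KO2, with 3 of 8 tested higher. Most of this sum was Fbln2 (383 to 403 CPM over WT, 566 CPM for KO1, 275 CPM for KO2), which did not pass, while the 3 that rose, Postn, Col1a1 and Dcn, were above every WT library in both KO libraries. The 6 suprabasal keratinocyte markers summed to 506 to 677 CPM over WT, 973 CPM for KO1 and 1017 CPM for KO2, with 3 of 6 higher. Over all libraries, melanocyte markers summed to 3.20 to 7.01 CPM and adipocyte markers to 0.10 to 0.58 CPM, with overlapping groups. Endothelial markers summed to 4.64 to 5.41 CPM over WT, 2.94 CPM for KO1 and 3.43 CPM for KO2. Leukocyte markers summed to 25.8 to 30.9 CPM over WT, 41.3 CPM for KO1 and 35.8 CPM for KO2, most of it Cd68. Of those tested, 0 of 4 melanocyte markers passed, 1 of 2 endothelial markers fell, 1 of 3 leukocyte markers (Cd68) rose and no adipocyte marker was tested. None of the markers was at 0 counts in every library. In bulk RNA, fewer cells of a type and less RNA per cell cannot be told apart, and the part of these shifts in the levels of the Fos and Jun genes was not tested.

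In WT cells all 7 genes were well expressed, with mean levels per transcript length from 73.3 to 616 TPM (transcript abundance scaled by length and by library). Junb was the most abundant at 616 ± 59.5 TPM (SD, n = 3), followed by Fos at 359 ± 85.9 TPM. Jun at 187 ± 38.6 TPM and Fosl1 at 181 ± 7.37 TPM had overlapping libraries and so did not differ beyond their spread. Jund, at 154 ± 9.39 TPM, overlapped Jun but lay below Fosl1 in every WT library. Fosb at 76.6 ± 18.4 TPM and Fosl2 at 73.3 ± 3.03 TPM could not be ordered either. In the KO libraries the mean order was Junb (551 TPM), Jun (283 TPM), Fos (175 TPM), Jund (140 TPM), Fosl2 (106 TPM), Fosl1 (32.8 TPM) and Fosb (5.63 TPM). The place of Fos differed between the 2 KO libraries. In KO1 Fos (105 TPM) was below Jund (126 TPM) and Fosl2 (111 TPM), and in KO2 Fos (245 TPM) was above Jun (233 TPM). Fosb, level with Fosl2 in WT, was the least abundant member in both KO libraries.

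**Figure D1:**
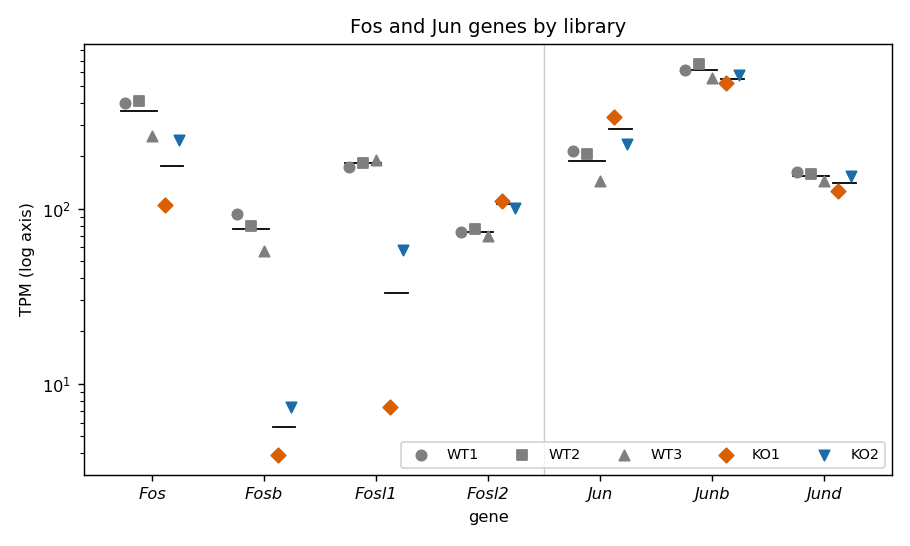
TPM of each Fos and Jun gene (log axis) in the 3 WT libraries (grey) and in KO1 (orange) and KO2 (blue), with group means as black lines. Fosb and Fosl1 lie far below WT in both KO libraries, Fosl2 and Jun lie above, and Junb and Jund overlap WT.

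The comparison of KO with WT asked which subunits differed when Angptl4 was lacking. Fosb fell and Fosl2 rose past the threshold, and the other 5 members did not pass. The test was edgeR's quasi-likelihood test on expected counts, two-sided, with p-values adjusted (Benjamini-Hochberg) over all 12957 genes tested and a threshold of 0.05. All 7 members passed the filter on low counts. Of all tested genes 40.8% passed this threshold, 20.4% higher and 20.4% lower in KO, so 2 of 7 members is no larger a share than the background. The groups did not overlap for 5 of the 7 members, against 66.4% of all tested genes. The targeted gene Angptl4 was low throughout, at 4.12 to 6.96 CPM (counts scaled by library size) over WT and at 0.83 CPM (KO1) and 1.06 CPM (KO2), below every WT library (log2 change -2.56 ± 0.32, adjusted p = 0.00458 by edgeR).

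Fosb encodes a Fos protein with a strong activation domain, and a shorter splice form that lacks it, which gene-level counts do not separate. It was measured at 93.3, 79.7 and 57.0 TPM over WT1 to WT3, and at 3.91 TPM (KO1) and 7.35 TPM (KO2). Both KO libraries lay far below every WT library. These levels rest on 2239 to 3642 counts in the WT libraries and 153 and 294 counts in KO1 and KO2. The log2 change of Fosb was -3.75 ± 0.37 (SE), a 13.4-fold fall (adjusted p = 0.00304 by edgeR), with 26 of the 12957 tested genes showing a lower log2 change. Of 16 other settings of the analysis all kept this call (adjusted p = 6.52e-27 to 0.0285).

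Fos, the best known immediate early gene of the family, was at 403, 413 and 260 TPM over WT1 to WT3, and at 105 TPM (KO1) and 245 TPM (KO2). Both KO libraries were below every WT library, KO2 only just below WT3. Its log2 change of -1.01 ± 0.41 did not pass (adjusted p = 0.0994 by edgeR), and 2 of 16 other settings called it (DESeq2, and KO1 alone against WT; adjusted p = 0.000816 to 0.231 over the 16). Against WT, KO1 differed by -1.74 ± 0.26 (adjusted p = 0.000816 by edgeR) and KO2 by -0.54 ± 0.23 (adjusted p = 0.0807). Leaving out either KO library thus moved the change by more than 1.5 times.

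Fosl1 encodes Fra-1, a Fos protein without a strong activation domain that is prominent in migrating and transformed epithelial cells. It was steady in WT1, WT2 and WT3 at 173, 181 and 188 TPM, and at 7.41 TPM in KO1 and 58.1 TPM in KO2. Both KO libraries were below every WT library, but they were also far from each other. The log2 change of -2.44 ± 0.80 (5.44-fold lower) did not pass in the fit of both KO libraries together (adjusted p = 0.0591 by edgeR). Each KO library passed on its own against WT, with log2 changes of -4.57 ± 0.10 in KO1 (adjusted p = 2.63e-07) and -1.63 ± 0.07 in KO2 (adjusted p = 1.88e-06), where the single library is assumed to vary like WT. In all, 7 of 16 other settings called Fosl1 (adjusted p = 2.63e-07 to 0.144).

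Part of Fosl1 overlaps a neighbour. Ccdc85b, on the opposite strand in GENCODE (GRCm38 chromosome 19, 5453180 to 5457894), shares bases with the end of Fosl1 (chromosome 19, 5447698 to 5455938), and no source used here gives the strand setting of the counting. Reads from the shared stretch cannot be assigned with certainty. Fosl1 was the only member with counts that were not whole, such as 130.52 in KO1 and 1032.22 in KO2, and the reason was not tested. Ccdc85b was at 48.7, 47.8 and 38.8 CPM in WT and 19.1 and 25.4 CPM in KO1 and KO2, against 147, 153 and 160 CPM in WT and 6.41 and 49.9 CPM in KO for Fosl1. Ccdc85b fell (log2 change -1.02 ± 0.17, adjusted p = 0.00917 by edgeR), with -1.23 in KO1 and -0.84 in KO2, the same direction and order as Fosl1 with a smaller gap between the KO libraries. The part of shared reads in either value was not tested. Jun overlaps the antisense transcript Junos and the noncoding Gm12703, and Jund the antisense Gm11175, which are not rows of the table.

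Fosl2 encodes Fra-2, the other Fos protein without a strong activation domain. It was at 73.8, 76.0 and 70.0 TPM over WT1 to WT3, and at 111 TPM (KO1) and 101 TPM (KO2). All WT libraries lay below both KO libraries, and the KO libraries were close to each other. Its log2 change was 0.55 ± 0.08, a 1.46-fold rise (adjusted p = 0.00725 by edgeR). The call was kept in 14 of 16 other settings and was lost without WT1 (adjusted p = 0.0513) and with the replicate number as a block (adjusted p = 0.101; range over the settings 5.17e-06 to 0.101). WT3 has no KO library of its number, so it does not enter the KO difference of the block fit. A rise of this size is small beside the fall of Fosb, and 2703 tested genes had a higher log2 change.

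Jun encodes the main partner of the Fos proteins. It was at 213, 206 and 143 TPM over WT1 to WT3, and at 332 TPM (KO1) and 233 TPM (KO2). Both KO libraries were above every WT library, KO2 only just. Its log2 change of 0.62 ± 0.23 did not pass (adjusted p = 0.0837 by edgeR), with 0.86 ± 0.18 in KO1 (adjusted p = 0.00496) and 0.33 ± 0.19 in KO2 (adjusted p = 0.168). DESeq2 and the fit without KO2 called it, the 2 of 16 other settings that did (adjusted p = 0.00496 to 0.305 over the 16).

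Junb, a weaker activator that can oppose Jun, was at 621, 672 and 554 TPM over WT1 to WT3, and at 521 TPM (KO1) and 581 TPM (KO2). Jund, the subunit least tied to growth stimulation, was at 161, 157 and 143 TPM in WT and at 126 and 153 TPM in KO1 and KO2. For both genes KO2 lay within the WT range and KO1 below it. Their log2 changes of -0.14 ± 0.12 and -0.12 ± 0.11 did not pass (adjusted p = 0.379 and 0.427 by edgeR), and no other setting called Junb. Jund passed only in KO1 alone against WT (log2 change -0.25 ± 0.07, adjusted p = 0.0211), and its log2 change without KO1 was 0.0002.

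The 2 KO libraries differed most in the members that were lower than WT. Relative to library size, KO2 held 7.97 times the Fosl1 counts of KO1 (95% exact binomial interval 6.64 to 9.63, counting error only), 2.39 times the Fos counts (2.27 to 2.51) and 1.94 times the Fosb counts (1.59 to 2.38). The ratio was 0.93 for Fosl2 (0.90 to 0.96), 0.72 for Jun (0.70 to 0.74), 1.14 for Junb (1.11 to 1.17) and 1.23 for Jund (1.18 to 1.28). KO1 was the library farther from WT for each of the 7 genes. The gap between the KO libraries in log2 CPM was larger for Fosl1 than for 99.5% of all tested genes, for Fos than for 92.6%, and for Fosl2 than for only 29.0%. Set against WT singly, 6 of 7 members passed in KO1 and 3 of 7 in KO2 (Fosb, Fosl1 and Fosl2), where 61.0% and 59.7% of all genes tested in those fits passed. Both comparisons use the same WT libraries.

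**Figure D2:**
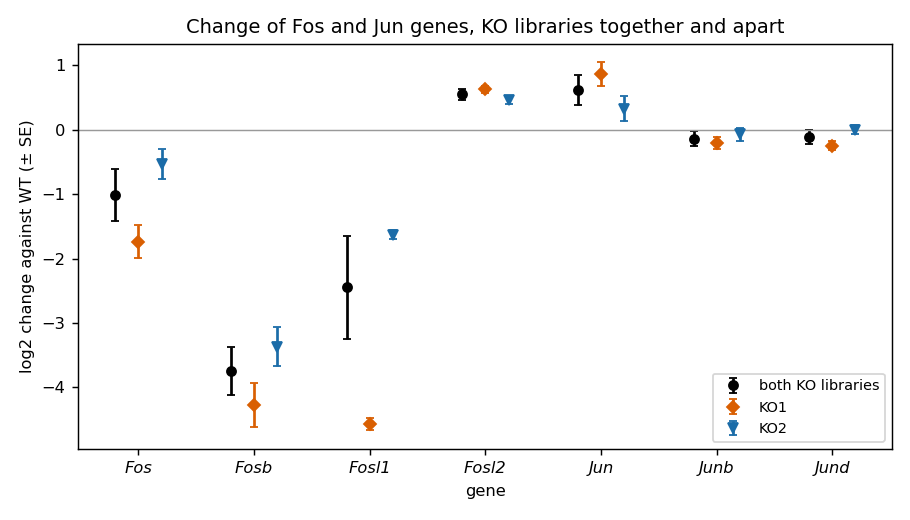
Log2 change against WT of each Fos and Jun gene, with both KO libraries together (black) and with KO1 (orange) or KO2 (blue) alone, bars giving ± SE from edgeR. KO1 lies farther from 0 than KO2 for every gene, and the widest gap is that of Fosl1, at -4.57 in KO1 and -1.63 in KO2.

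Summed by subfamily, the Fos genes were lower in KO while the Jun genes were level. The 4 Fos genes together came to 743, 750 and 575 TPM over WT1 to WT3, and to 227 TPM (KO1) and 411 TPM (KO2). The 3 Jun genes together came to 995, 1035 and 840 TPM in WT and to 980 and 967 TPM in KO1 and KO2, within the WT range. The ratio of Fos to Jun transcripts was 0.72 ± 0.03 (SD, n = 3) in WT, and 0.23 in KO1 and 0.43 in KO2. Summed Fos transcripts were thus below summed Jun transcripts in every library. The exact permutation test over 5 libraries was made two-sided by doubling the one-sided p. In this form it cannot give a p below 0.20, which was its value for this ratio (0.267 adjusted over 8 ratios and shares). Without KO1 the log2 difference of this ratio was -0.76 and without KO2 it was -1.63, against -1.20 with both.

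The makeup of the Fos transcripts also differed. Fos itself took 54.2, 55.1 and 45.2% of Fos transcripts over WT1 to WT3, and 46.2% (KO1) and 59.6% (KO2), so its share overlapped between groups. Fosb took 12.6, 10.6 and 9.91% in WT and 1.72 and 1.79% in KO1 and KO2. Fosl1 took 23.3, 24.1 and 32.7% in WT and 3.27 and 14.1% in KO. The share of Fosl2 was 9.93, 10.1 and 12.2% in WT, 48.8% in KO1 and 24.4% in KO2, which made it the largest Fos transcript of KO1. Among Jun transcripts, Jun took 21.4, 19.9 and 17.0% in WT and 33.9 and 24.1% in KO1 and KO2, and Junb 62.4, 65.0 and 66.0% in WT and 53.2 and 60.1% in KO. The shares of Fosb, Fosl1, Fosl2, Jun and Junb did not overlap between groups, each at the smallest p this test allows (exact permutation test, p = 0.20, adjusted 0.267). The share of Jund overlapped (exact permutation test, p = 0.40, adjusted 0.457), as did that of Fos (exact permutation test, p = 0.80, adjusted 0.80).

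**Figure D3:**
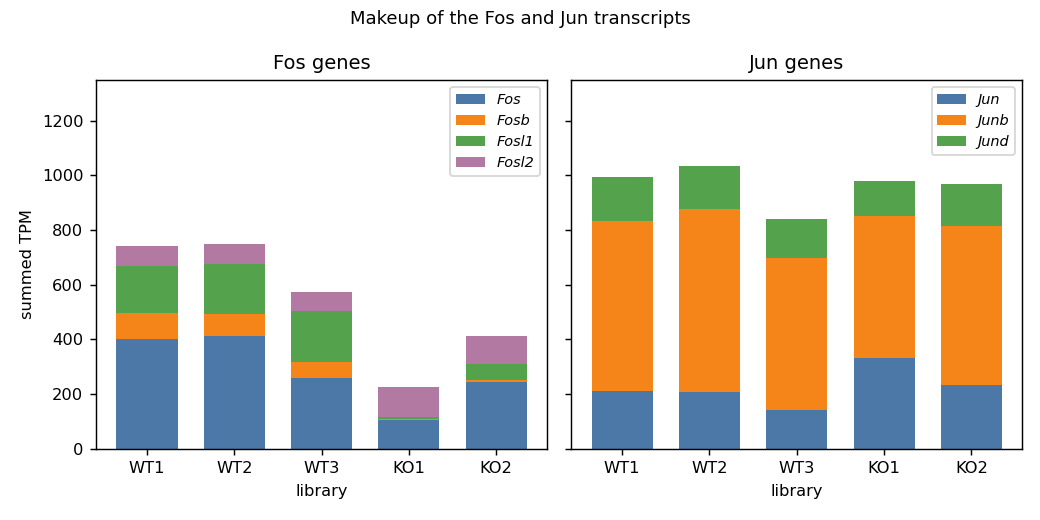
Stacked TPM of the 4 Fos genes (left) and the 3 Jun genes (right) in each library. The Fos stack is 575 to 750 TPM in WT and 227 and 411 TPM in KO1 and KO2, with Fosl2 taking 48.8% of it in KO1, while the Jun stacks run from 840 to 1035 TPM over all libraries.

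Ratios between single members, chosen after their values were seen and not tested, differed between the groups as well. The ratio of Fosb to Fos TPM was 0.23, 0.19 and 0.22 in WT1, WT2 and WT3, although both genes were lower in WT3, and 0.04 and 0.03 in KO1 and KO2. Fosl1 exceeded Fosl2 by a ratio of 2.35 to 2.69 in WT, and was below it in KO at 0.07 in KO1 and 0.58 in KO2. The ratio of Jun to Junb was 0.26 to 0.34 in WT, 0.64 in KO1 and 0.40 in KO2.

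The WT libraries themselves were uneven for the early members. WT3 was the lowest WT library for 6 of the 7 members (all but Fosl1), against 35.3% of all tested genes. The coefficient of variation over WT was 23.8% for Fos, 23.8% for Fosb and 20.5% for Jun, higher than for 88.0 to 90.0% of tested genes. It was 4.11% for Fosl1 and 3.91% for Fosl2, below the median of 5.39% over all genes. WT3 was also lowest for 21 of 27 other immediate early genes (77.8%), though it was the highest WT library for others, such as Gadd45b, Ccn2 and Nr4a2, named after their values were seen. Without WT3 the log2 changes were -1.20 for Fos and -3.92 for Fosb, and Fosb kept its call (adjusted p = 0.0231 by edgeR).

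None of the other immediate early genes passed lower with both KO libraries together. Of 29 listed genes 27 were tested, 5 rose, 0 fell and 22 did not pass, with a median log2 change of 0.17 against 0.02 over all tested genes, of which 20.4% rose and 20.4% fell. The share that rose was thus near the background. Sgk1, a serum-induced kinase, rose by 2.22 ± 0.09 (mean 24.3 CPM in WT and 113 CPM in KO, adjusted p = 0.000546 by edgeR), and Btg2, an antiproliferative gene, by 1.21 ± 0.11 (adjusted p = 0.00253). Ccn2, a matricellular growth factor, rose by 2.88 ± 0.48 (adjusted p = 0.00876), where KO1 had 270 CPM, KO2 85.6 CPM and the WT libraries 20.3 to 26.6 CPM. Arc, an early gene best known in neurons, rose by 2.31 ± 0.53 (adjusted p = 0.0216), against 1.12 to 1.75 CPM in WT, with 3.57 CPM for KO1 and 11.4 CPM for KO2. The fifth to rise was Egr1, a zinc finger factor often induced alongside Fos, named here after its values were seen. WT1, WT2 and WT3 had 383, 457 and 274 CPM of it, KO1 had 636 CPM and KO2 696 CPM, both above WT where Fos was below (log2 change 0.84, adjusted p = 0.0305 by edgeR). The groups did not overlap for 11 of the 27 genes, against 66.4% of all tested genes. Of these 11, Klf2 (log2 change -1.21), Zfp36 (-0.63) and Csrnp1 (-0.36) were lower in KO and, like Fos, did not pass. The rest of the 11 were higher.

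In KO1 alone 9 genes of the early list passed higher and 7 lower, and in KO2 alone 13 higher and 3 lower. These totals are near the shares of all genes that passed in the same fits, 61.0% for KO1 and 59.7% for KO2. For 6 of the 27 genes, KO1 and KO2 lay on opposite sides of all WT libraries. How many of all tested genes did so was not counted, so this share has no background beside it. Without WT1, WT2 and WT3 in turn, the 5 that rose became 3, 4 and 3 and the 0 that fell became 0, 0 and 1. The same fits called 980, 1133 and 1116 of all tested genes higher, against 2638 with all libraries. They called 977, 1149 and 1128 lower, against 2648 with all libraries.

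**Figure D4:**
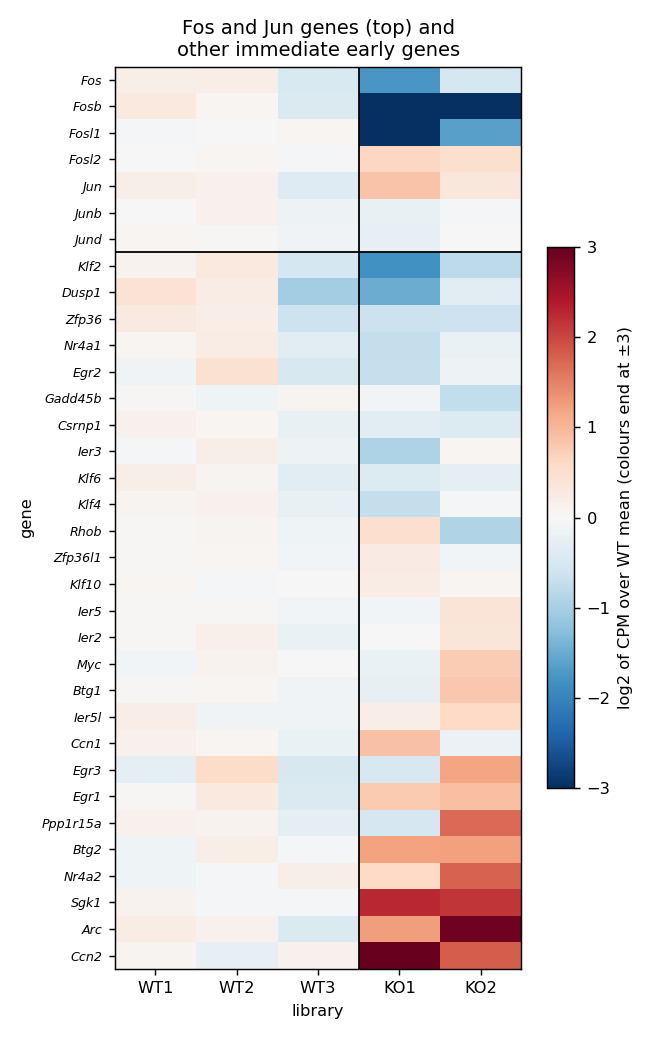
Log2 of CPM over the WT mean in each library for the 7 Fos and Jun genes (top block) and 27 other immediate early genes (below, ordered by log2 change), blue below and red above the WT mean. Fosb and Fosl1 in KO1 and Fosb in KO2 reach the end of the blue scale at -3, and WT3 is the lowest WT library for 21 of the 27 other genes.

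Proteins of the wider basic leucine zipper class can replace Fos in a dimer or bind related sites. Of 14 such genes 10 were tested, 2 rose, 0 fell and 8 did not pass, with a median log2 change of 0.15, where 20.4% of all tested genes rose and 20.4% fell. Maf rose by 1.46 ± 0.23 (adjusted p = 0.00808 by edgeR), with 12.1 to 14.7 CPM over WT, 46.5 CPM for KO1 and 27.5 CPM for KO2. The related Mafa rose by 1.21 ± 0.21 (adjusted p = 0.0107) at 2.18 to 2.68 CPM in WT. Maff, a small Maf protein without an activation domain, had 25.9 to 30.3 CPM over WT, 9.35 CPM for KO1 and 21.7 CPM for KO2, and did not pass (adjusted p = 0.109 by edgeR). Without WT1, WT2 or WT3, those that rose became 1, 1 and 1 and those that fell 0, 0 and 0. These fits also called fewer of all tested genes.

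Upstream, kinases of the MAPK cascades phosphorylate the subunits, and serum response factor and its partners drive Fos transcription. Of 27 such genes 26 were tested, 4 rose, 5 fell and 17 did not pass, with a median log2 change of -0.0005, both shares being near the 20.4% of all tested genes in each direction. Mapk3, which encodes ERK1, rose by 0.59 ± 0.09 (95.6 to 143 CPM, adjusted p = 0.00767 by edgeR), Mapk7, which encodes ERK5, by 0.57 ± 0.09 (adjusted p = 0.00822) and the kinase Araf by 0.35 ± 0.07 (adjusted p = 0.0132). Map2k3, which activates p38, fell by 0.57 ± 0.08 on the log2 scale (207 to 139 CPM, adjusted p = 0.00505). Without WT1, WT2 and WT3 in turn, those that rose became 0, 2 and 2 and those that fell 1, 1 and 1. These fits also called fewer of all tested genes.

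Among 12 genes whose proteins modify, degrade or bind Fos and Jun proteins, 11 were tested, 2 rose, 4 fell and 5 did not pass (median log2 change 0.02), against 40.8% of all tested genes that passed in either direction. Fbxw7, a ubiquitin ligase subunit that marks Jun for degradation, rose by 0.35 ± 0.09 (adjusted p = 0.0331 by edgeR), and Usp28, a deubiquitinase that opposes it, by 0.61 ± 0.16 (adjusted p = 0.0324). Cops5, a Jun-binding subunit of the COP9 signalosome, fell by 0.29 ± 0.06 on the log2 scale (adjusted p = 0.0197). Without WT1, WT2 or WT3 no gene of this list passed in either direction, in fits that also called fewer of all tested genes. Without KO1 and KO2 in turn, 4 and 3 rose and 5 and 4 fell.

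Genes listed here as AP-1 targets were more often lower than higher. The list was written with earlier results of these data known, so its counts describe the listed genes only. Of 30 such genes 29 were tested, 10 fell, 1 rose and 18 did not pass, with a median log2 change of -0.42 against 0.02 over all tested genes, of which 20.4% fell. Il1a, a keratinocyte alarmin, fell by 2.78 ± 0.20 on the log2 scale (197 to 28.7 CPM, adjusted p = 0.00185 by edgeR), and the calprotectin subunit gene S100a8 by 2.26 ± 0.32 (adjusted p = 0.00611). The EGFR ligand gene Tgfa fell by 1.88 ± 0.20 (195 to 53.2 CPM, adjusted p = 0.00336) and Plaur, the urokinase receptor, by 1.19 ± 0.10 (81.5 to 35.7 CPM, adjusted p = 0.00232). The 1 gene that rose, named after its values were seen, was Krt17, a stress keratin (5257 to 8522 CPM, log2 change 0.70, adjusted p = 0.0499). Without WT1, WT2 or WT3, the 10 that fell became 4, 5 and 6 and the 1 that rose 0, 0 and 0. These fits also called fewer of all tested genes.

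Matrix metalloproteinases, the classic AP-1 targets, are given here after their values were seen. None of the 5 tested, Mmp1b, Mmp3, Mmp9, Mmp10 and Mmp13, passed with both KO libraries together, and the KO libraries differed. Mmp1b was at 4.46 to 5.70 CPM over WT, 0.10 CPM for KO1 and 2.85 CPM for KO2. Mmp13 was at 31.9, 26.5 and 16.3 CPM in WT1, WT2 and WT3, but 1.57 CPM for KO1 and 59.2 CPM for KO2, on opposite sides of WT. Mmp9 was at 131, 108 and 79.0 CPM in WT, 61.1 CPM for KO1 and 20.9 CPM for KO2 (adjusted p = 0.0721 by edgeR), here with KO2 the lower. Over the whole target list KO1 and KO2 lay on opposite sides of all WT libraries for 8 of 29 genes. The same count over all tested genes was not made, so this share has no background beside it.

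**Figure D5:**
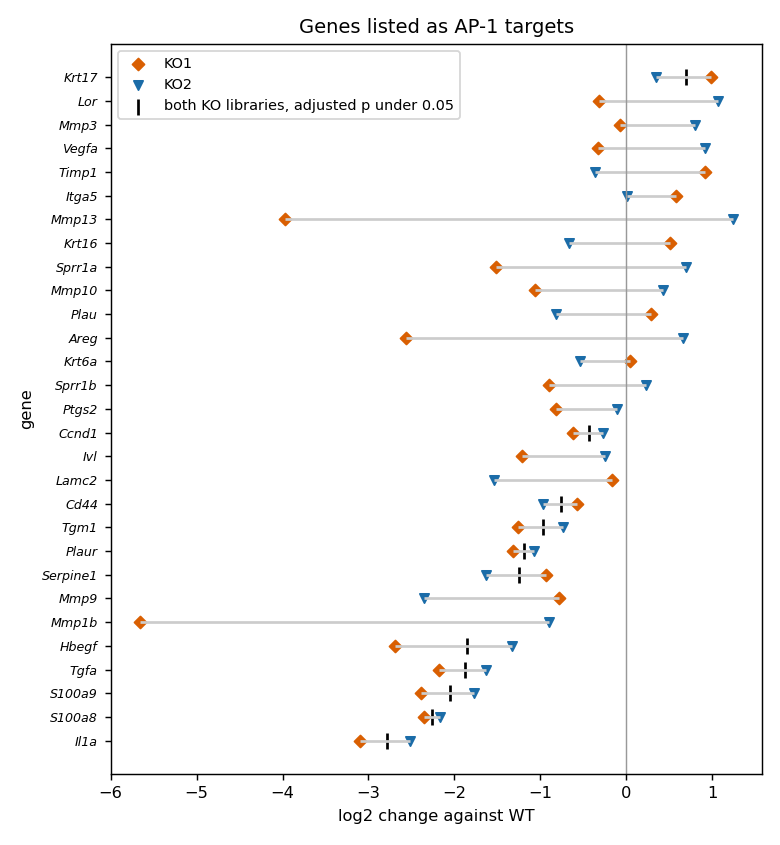
Log2 change against WT of 29 tested genes known as AP-1 targets, with KO1 (orange) and KO2 (blue) apart and a black tick at the value of both together for the genes that passed. Il1a, S100a8, S100a9, Tgfa, Hbegf and Plaur lie below -1 in both KO libraries, and Mmp13 lies at -3.98 in KO1 and 1.24 in KO2.

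The genes nearest in profile were sought for Fosb, Fos, Jun and Fosl2, by the root mean square distance of log2 CPM over the 5 libraries, each centred on its WT mean. For Fosb these were Prl8a9, a prolactin family gene (distance 0.14; 333.7, 286 and 233 CPM in WT and 12.3 and 29.3 CPM in KO), and Mal, a membrane lipid raft protein (0.24). For Fos they were Lce3b (0.09) and Klf2 (0.11), the latter itself an immediate early gene, both under 3 CPM. For Jun they were Nfkbie (0.08) and Pdgfra (0.09), at 0.97 to 5.04 CPM, and for Fosl2 Cpt2 (0.02) and Ralgds (0.03). With 5 libraries and 2 groups such likeness is a description of a few values.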

How the data were processed

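RNA-seq of 5 libraries (WT 3, KO 2, grouped by title) was used as deposited. The submitters' processing notes name RSEM 1.3.1 and GRCm38.p6, with no role given. The authors' deposited read counts were taken for estimated counts from their values, of which 32.1 to 34.0% were not whole. TPM, named so per the file headers, are the authors' length-scaled abundances. The authors' FPKM values are in the deposited table and were not used. Which aligner and strand setting were used was not given in the sources used here. Library totals were 20283084 to 20773407 counts.

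Expected counts were rounded and fitted across all genes in R 4.3.3 with edgeR 4.0.16 (filterByExpr, TMM factors 0.988 to 1.02, quasi-likelihood test, Benjamini-Hochberg). Alternatives used DESeq2 1.42.0 and limma 3.58.1, other scaling and filters, log2(TPM + 1) and log2(TPM + 0.1), a replicate block and each library left out. Ratios and shares of TPM were compared by exact permutation over the libraries. The script was tested on simulated data. Named genes are the 7 members, Angptl4, up to 4 genes with the smallest p per list, and the 2 nearest profiles, passing over predicted genes. Some genes this rule names are not reported here. Ccdc85b was added for its overlap. The members and lists were chosen with earlier results of these data known, and pair ratios after their values were seen.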

Additional observations from a re-analysis of the deposited data

How the results depend on the processing

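Of 112 refits of the 7 genes, 97 kept direction and side of the threshold, 12 newly passed it, 2 lost it and 1 changed sign. DESeq2 called Fos (log2 change -1.02), Fosl1 (-2.46) and Jun (0.62). Fosl1 also passed with limma-voom (-3.09), with a separate spread per group (-3.09), and on log2(TPM + 1) (-3.03) and log2(TPM + 0.1) (-3.11) with a mean TPM of at least 1. With each library left out in turn, values ran from -1.74 to -0.54 for Fos, -4.57 to -1.63 for Fosl1, 0.47 to 0.63 for Fosl2 (call lost without WT1), 0.33 to 0.86 for Jun and -0.25 to 0.0002 for Jund, whose sign turned without KO1. The Fos to Jun ratio ran from -1.63 to -0.76. The genes called over all numbered 2638 higher and 2648 lower, 1625 and 1567 with a separate spread per group and 797 and 783 with the replicate block, and with each library left out 980 to 3975 higher and 977 to 4093 lower. With the replicate number as a block, Fosl2 lost its call (0.52) and no other member changed its call; upstream genes and regulators went to 0 in both directions, early genes to 3 higher and 1 lower, dimer partners to 1 higher and targets to 0 higher and 9 lower. With a separate spread per group regulators went to 0 in both directions and upstream genes to 3 higher and 3 lower. The numbers 1 and 2 occur in both groups, and no label says that they pair libraries. WT3 has no KO library of its number and does not enter the KO difference of the block fit. Deviations of same-numbered libraries from their group means had correlations of 0.007 and 0.068 across genes, which are not independent. With only 2 KO libraries these mirror the cross-numbered values (-0.007 and -0.068), so they cannot decide whether the numbers pair libraries. What caused these differences was not tested. The smallest member count was that of Fosl1 in KO1, 131 after rounding.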
